A study of Mus musculus with 6 samples.

Results

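p53, encoded by Trp53, and 9 genes that it is known to activate were followed in MIN6 cells, an insulin-secreting line derived from a mouse insulinoma. The 10 genes were chosen by name from what is known of p53 (Trp53, Mdm2, Trp53inp1, Ccng1, Cdkn1a, Btg2, Gadd45a, Plk2, Sesn1 and Sesn2), and all 10 were found among the 22298 genes of the deposited table. After chronic epinephrine exposure, Plk2 rose 3.48-fold from a level near 1 CPM (counts scaled to the library total), Sesn1 fell 1.41-fold, and neither the transcript of p53 itself nor that of its inhibitor Mdm2 differed beyond the spread between samples. Cdkn1a, which encodes the cell cycle inhibitor p21, was 23.5% higher and Btg2 was 16.3% lower, and these differences passed the test of edgeR only when control 1, a library that stood apart from the other 5, was left out. Plk2 and Sesn1 passed it with all samples. When each of the 6 samples was left out in turn, Plk2 no longer passed in 4 of the fits and Sesn1 in 5.

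The study sequenced total RNA of 3 control samples and 3 chronic epinephrine samples. Epinephrine was used at 100 nM for 3 days, followed in the study's scheme by 2 days without it, and the day of RNA collection is not given in the sources used here. All cells were of this 1 line, with no deletion or transgene named in the labels, at passages 32 to 40. Nothing in the labels says that the 3 samples of a group were separate cultures, while the study's methods describe its data in general as coming from biological replicates. The p-values measure the spread between these samples, which may be technical if they were not. Totals were 15017065 to 18127171 expected counts per sample (read counts estimated per gene, which need not be whole).

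p53 is a transcription factor that is held low by Mdm2, a ubiquitin ligase that is itself a p53 target, and that accumulates after DNA damage and other stress. Its targets stop the cell cycle (Cdkn1a, Btg2, Gadd45a, Ccng1), restrain growth signaling and oxidants (the sestrins) or feed back on p53 (Mdm2, Ccng1, Trp53inp1). Several of these genes also respond without p53: Plk2 and Btg2 are immediate-early genes, and Sesn2 and Gadd45a are induced by ATF4 in the response to endoplasmic reticulum stress. Adult β-cells divide rarely, whereas MIN6 cells are a dividing tumor line. Epinephrine acts on β-cells mainly through the α2A-adrenergic receptor, which lowers cAMP, the messenger that acts on CREB at cAMP response elements (CREs).

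The promoter windows of RefSeq (GRCm38.p6, 250 bases before to 50 after each start) were searched on both strands for motifs that include those of p53 and of CREB. There were 11 windows for 9 of the genes (all but Trp53inp1). The CRE, TGACGTCA, which reads the same on both strands, was found in the windows of Plk2 and Btg2, the genes of the set with the largest rise and with the highest level in the controls. It was held by 588 of all 32851 windows (1.79%). The p53 element, a pair of p53 half-sites with up to 13 bases between them, was found in 1 window, that of the upstream start of Cdkn1a, and in 24 of all windows (0.0731%). Stretches of 100 bases around these matches are shown 5′ to 3′ on the strand of the gene, with the matches in capitals.
Plk2, chr13:110394936-110395035, + strand, CRE 62 to 55 bases before the start: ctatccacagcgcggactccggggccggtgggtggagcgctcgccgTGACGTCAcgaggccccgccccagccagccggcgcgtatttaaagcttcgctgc
Btg2, chr1:134079268-134079367, - strand, CRE 166 to 159 bases before the start: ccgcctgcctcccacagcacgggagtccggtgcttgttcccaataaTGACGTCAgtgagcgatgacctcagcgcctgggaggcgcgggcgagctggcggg
Cdkn1a, chr17:29090872-29090971, + strand, p53 half-sites 12 bases apart within 73 to 42 bases before the upstream start: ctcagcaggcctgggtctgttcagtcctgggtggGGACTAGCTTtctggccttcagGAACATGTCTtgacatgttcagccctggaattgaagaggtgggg

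In the stretch of Cdkn1a, the bases directly after the second marked half-site, tgacatgttc, depart from the half-site pattern only at the first of them. The search took exact matches only, so the capitals need not show the pair that p53 binds. The downstream start of Cdkn1a lies 2790 bases from the upstream one, so that the marked pair ends 2832 bases before it. A single p53 half-site, which 8.36% of all windows hold, was found in the windows of Trp53, Mdm2, Gadd45a, Ccng1 and the downstream start of Sesn1. The ATF4-C/EBP motif TGATGNAA (3.97% of windows), the AP-1 motif TGANTCA (7.81%) and the CArG box of SRF (1.63%) were not found in any of the 11 windows, and TATAAA (13.6%) was found only in that of Trp53, on the reverse strand. A match describes these letters only, and a binding site outside the window was not looked for. Among 378 tested genes with the CRE in a window, 10 were called higher and 2 lower at an FDR under 0.05 (3.17%, near the 2.63% of all genes tested), and their median on the log2 fold scale was 0.02. Of the 6 tested genes with the p53 element, 0 were called and 2 had an unadjusted p under 0.05 by edgeR's quasi-likelihood test (17.1% of all genes tested), and their median was -0.05.

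**Figure D1:**
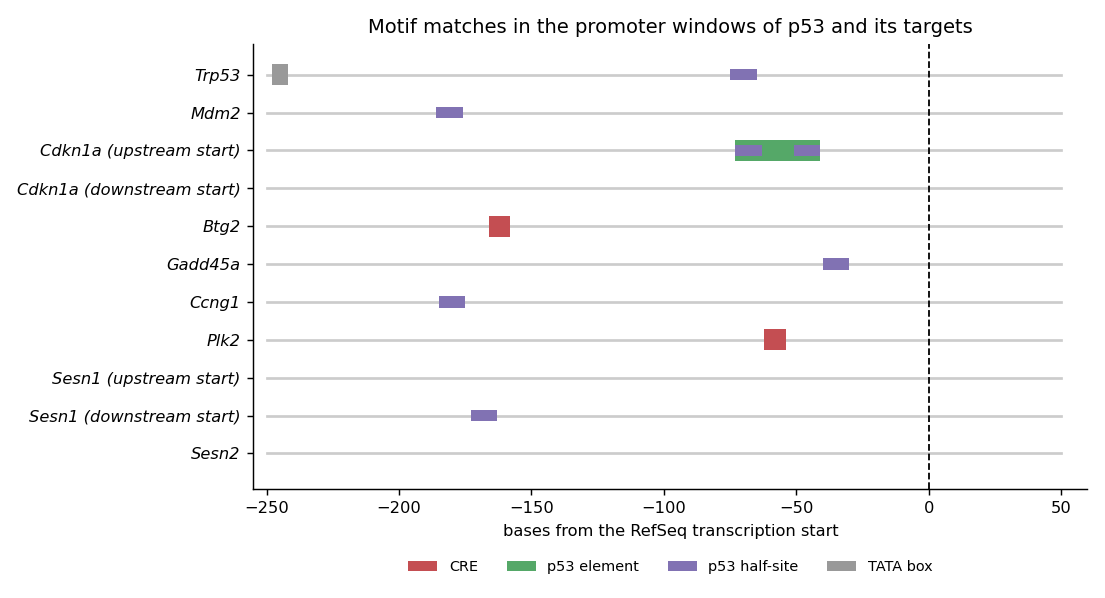
Positions of motif matches in 11 RefSeq promoter windows of p53 and its targets, in bases from the transcription start. Grey lines are the windows, colored blocks are the matches and the dashed line is the start. The CRE is seen in Plk2 and Btg2 alone and the paired p53 element in the upstream start of Cdkn1a alone.

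Each gene was tested within 1 fit over 12747 genes, and FDR is the p-value adjusted over all of them by edgeR's quasi-likelihood test. A gene was called at an FDR under 0.05. All 10 genes passed the filter on low counts. In this fit 2.63% of tested genes were called, 2.02% higher and 0.612% lower after epinephrine, and 0.722% were called with at least 2-fold change. Of the 10 genes, 1 was called higher (Plk2, also past 2-fold) and 1 lower (Sesn1). The groups did not overlap, in that every sample of one group lay above every sample of the other, for 4 of the 10 genes against 27.3% of genes tested. An unadjusted p under 0.05 was reached by 4 of the 10 (Plk2, Sesn1, Cdkn1a and Btg2) against 17.1% of genes tested. The median log2 fold change of the 10 was 0.05, beside -0.00 over all genes tested, with 6 higher and 4 lower. An exact two-sided permutation test of single genes is given too, although 3 samples against 3 allow no p under 0.1.

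Control 1 stood apart from the other samples before any gene was considered. Its log2 profile correlated across genes at 0.979 and 0.978 with controls 2 and 3, which correlated at 0.993 with each other, as the epinephrine samples did among themselves (0.992 to 0.993). It was the highest or lowest of the 6 samples for 68% of tested genes, against 24.1 to 32.5% for each other sample. Among the 10 genes it was highest for Trp53 and Sesn2 and lowest for Mdm2, Ccng1, Trp53inp1 and Gadd45a. Without control 1, 21.6% of 12966 genes were called and the groups did not overlap for 47.3%. Under that setting 5 of the 10 genes were called (Plk2, Cdkn1a and Sesn2 higher, Sesn1 and Btg2 lower) and 7 did not overlap. Of the 12 hepatocyte markers checked as a sign of other cells, 10 were tested under that setting and 8 were called lower after epinephrine, all by at least 2-fold (median of the 10 on the log2 scale -6.53), and controls 2 and 3 were the samples that held most of their transcripts. The part of these transcripts in the added calls was not tested. The fold changes of the 10 genes are therefore given with and without control 1.

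**Figure D2:**
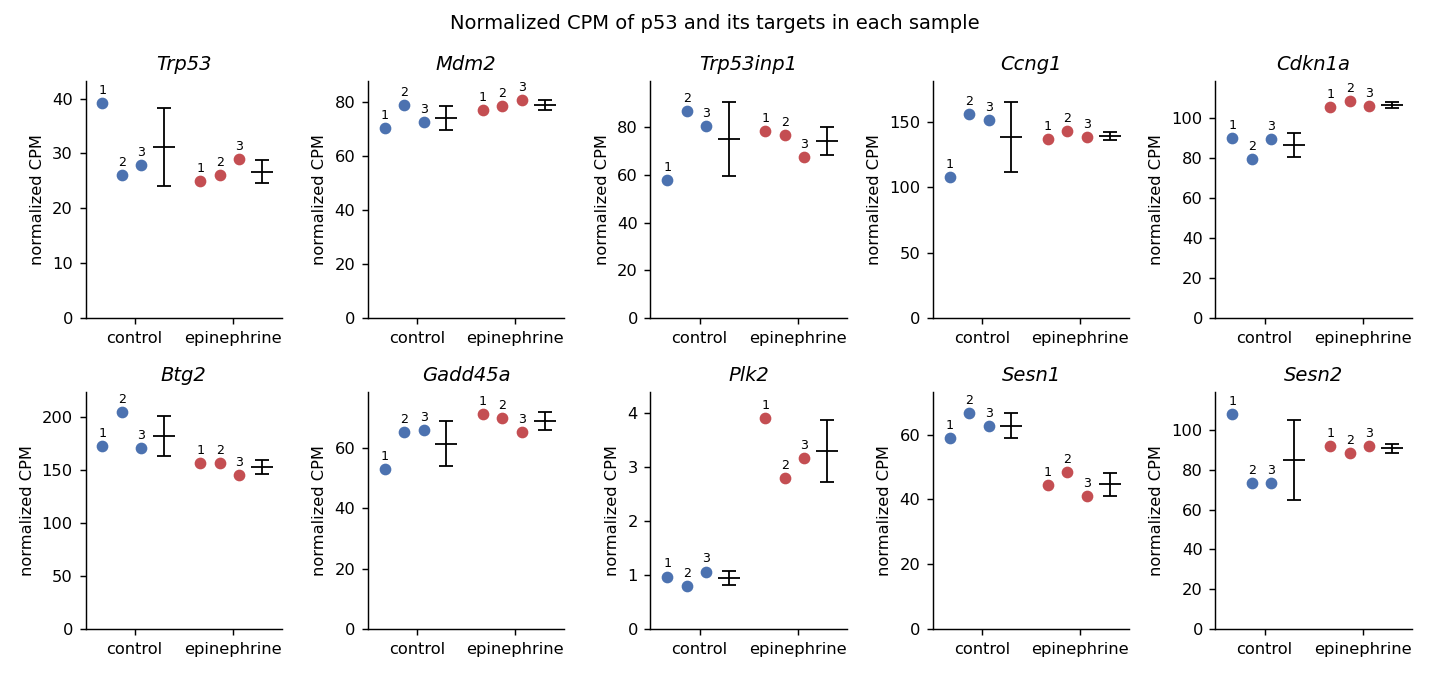
Normalized CPM (vertical axis from 0) of each of the 10 genes in the control (blue) and epinephrine (red) samples, with replicate numbers above the points and the mean ± SD of 3 samples beside them. The groups separate for Cdkn1a, Btg2, Plk2 and Sesn1, and control 1 lies away from controls 2 and 3 for Trp53, Trp53inp1, Ccng1 and Sesn2.

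Trp53 (ENSMUSG00000059552, GRCm38 chr11:69580359-69591873, + strand) encodes p53. Its level was 39.2, 26.1 and 28.0 normalized CPM (scaled by TMM) in controls 1 to 3, and 25.0, 26.1 and 29.0 in epinephrine samples 1 to 3. Control 1 was the highest of all, at 1.45 times the mean of the other controls, and the remaining 5 samples overlapped. The fitted log2 fold change was -0.22 (SE 0.16, 95% interval -0.58 to 0.14, FDR 0.518, exact p = 0.4). Without control 1 it was -0.02 (SE 0.09, FDR 0.899). Of its 50-base exonic windows 3.95% also occur in other genes, mostly in the pseudogene Trp53-ps, so a small part of its reads could be split between them.

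Mdm2 (ENSMUSG00000020184, chr10:117688875-117710758, - strand), the ubiquitin ligase that marks p53 for degradation, was at 70.4, 78.9 and 72.5 CPM in the controls. The epinephrine samples were at 77.2, 78.6 and 80.7 CPM. Control 2 lay among the epinephrine samples. Epinephrine against control gave a log2 fold change of 0.09 (SE 0.08, 95% interval -0.10 to 0.28, FDR 0.619, exact p = 0.3), and 0.06 without control 1 (FDR 0.552). The interval excludes a 2-fold change in either direction.

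Trp53inp1 (ENSMUSG00000028211, chr4:11156431-11174379, + strand) encodes a stress-induced nuclear protein that promotes p53 activity. Its control levels of 57.7, 86.9 and 80.3 CPM enclosed the epinephrine levels of 78.3, 76.8 and 67.6 CPM. Control 1 was the lowest sample, at 0.690 of the mean of controls 2 and 3. The log2 fold change was -0.01 (SE 0.15, 95% interval -0.36 to 0.33, FDR 0.971, exact p = 1). Without control 1 the groups separated, with the epinephrine samples lower, at a log2 fold change of -0.17 (SE 0.06, FDR 0.0589).

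Ccng1 (ENSMUSG00000020326, chr11:40748552-40755311, - strand) encodes cyclin G1, which recruits a phosphatase to Mdm2. It showed the same arrangement, with 108, 156 and 151 CPM in the controls and 137, 143 and 139 CPM after epinephrine. Control 1 was the lowest, at 0.700 of the mean of the other controls, and the epinephrine samples lay between it and them. Its log2 fold change was 0.01 (SE 0.14, 95% interval -0.30 to 0.33, FDR 0.974, exact p = 1). Without control 1 it became -0.14 (SE 0.05, FDR 0.0570), with no overlap.

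Cdkn1a (ENSMUSG00000023067, chr17:29090976-29100727, + strand) encodes p21, which inhibits cyclin-dependent kinases and is the main effector of p53 in arrest at G1. Its level was 90.0, 79.6 and 89.7 CPM in the controls (86.4 ± 5.92, SD, n = 3). After epinephrine it was 106, 108 and 106 CPM (107 ± 1.42, SD, n = 3). Every epinephrine sample was above every control sample, and the epinephrine samples differed little among themselves. The log2 fold change was 0.30 (SE 0.08, 95% interval 0.11 to 0.50), with an unadjusted p of 0.00610 and an FDR of 0.106 by edgeR, and an exact p of 0.1. DESeq2 called it at an FDR of 0.0379, and without control 1 the log2 fold change was 0.34 at an FDR of 0.000123. Of its exonic windows 8.49% are shared with other genes, most of them with the antisense gene AC167363.2, which overlaps 273 of its exonic bases.

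Btg2 (ENSMUSG00000020423, chr1:134075170-134079120, - strand), an antiproliferative gene that promotes decay of messenger RNA, had values of 173, 204 and 170 CPM in the controls. Those after epinephrine were 157, 157 and 145 CPM. All 3 epinephrine samples were below all 3 controls, and control 2 was the highest. With all samples the fit gave -0.26 on the log2 scale (SE 0.10, 95% interval -0.48 to -0.03), with an unadjusted p of 0.0289 and an FDR of 0.225 by edgeR, and an exact p of 0.1. Without control 1 it was -0.29 at an FDR of 0.000879. Its CRE and that of Plk2 stood in front of genes whose differences had opposite signs.

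Gadd45a (ENSMUSG00000036390, chr6:67035096-67037457, - strand) encodes a damage sensor that acts at the G2 to M transition and on stress kinases. It was at 52.9, 65.4 and 65.9 CPM in the controls and at 71.1, 69.9 and 65.4 CPM after epinephrine. Control 1 was the lowest and epinephrine sample 3 lay level with controls 2 and 3. The log2 fold change was 0.16 (SE 0.10, 95% interval -0.08 to 0.40, FDR 0.471, exact p = 0.2), and 0.07 without control 1 (FDR 0.465). The antisense gene E230016M11Rik overlaps 337 of its exonic bases (15.6% of its windows are shared), and whether the counting used strand is not given in the sources used here.

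Plk2 (ENSMUSG00000021701, chr13:110395046-110400844, + strand) encodes a polo-like kinase that acts in centriole duplication and the S phase checkpoint. It was the lowest of the 10 genes, with 15, 14 and 17 counts in controls 1 to 3 and 66, 50 and 48 in epinephrine samples 1 to 3. These correspond to 0.971, 0.800 and 1.06 CPM and to 3.91, 2.80 and 3.17 CPM. The lowest epinephrine sample was well above the highest control, and leaving out control 1 moved the estimate little. The log2 fold change was 1.80 (SE 0.24, 95% interval 1.24 to 2.35, FDR 0.00853, exact p = 0.1), and 1.82 without control 1 (FDR 8.64e-05). The call was lost, at a similar fold, without control 2 (1.68, FDR 0.0536) and without epinephrine sample 1 (1.66, FDR 0.0772), 2 (1.91, FDR 0.0547) or 3 (1.82, FDR 0.0546). Even after the rise its level stayed below that of every other gene of the set.

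Sesn1 (ENSMUSG00000038332, chr10:41809935-41908424, + strand) encodes sestrin 1, which inhibits the growth kinase mTORC1 and supports peroxiredoxins. Its control levels were 59.0, 66.5 and 62.8 CPM. The epinephrine levels were 44.5, 48.3 and 41.1 CPM, each below the lowest control. In the test its log2 fold change was -0.49 (SE 0.09, 95% interval -0.71 to -0.28, FDR 0.0344, exact p = 0.1), and -0.53 without control 1 (FDR 1.21e-06). The call was lost without control 2 (-0.45, FDR 0.120) or 3 (-0.49, FDR 0.0982) and without epinephrine sample 1 (-0.49, FDR 0.211), 2 (-0.55, FDR 0.108) or 3 (-0.44, FDR 0.205). The sign was the same in each of these fits and the groups did not overlap. Both were fixed beforehand, since with all samples every epinephrine sample already lay below every control, so they add no support to the call.

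Sesn2 (ENSMUSG00000028893, chr4:132492032-132510501, - strand) encodes sestrin 2, which also binds leucine upstream of mTORC1. Its control levels of 108, 73.4 and 73.5 CPM lay on both sides of the epinephrine levels of 92.3, 88.4 and 91.9 CPM. Control 1 was 1.48 times the mean of controls 2 and 3, while the epinephrine samples were close together. With all samples the log2 fold change was 0.10 (SE 0.15, 95% interval -0.25 to 0.44, FDR 0.789, exact p = 0.4). Without control 1 it was 0.31 (SE 0.06, FDR 0.000213), and without control 2 or control 3 it was -0.01 and -0.00. The sign was thus positive only where both of controls 2 and 3 were kept.

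**Figure D3:**
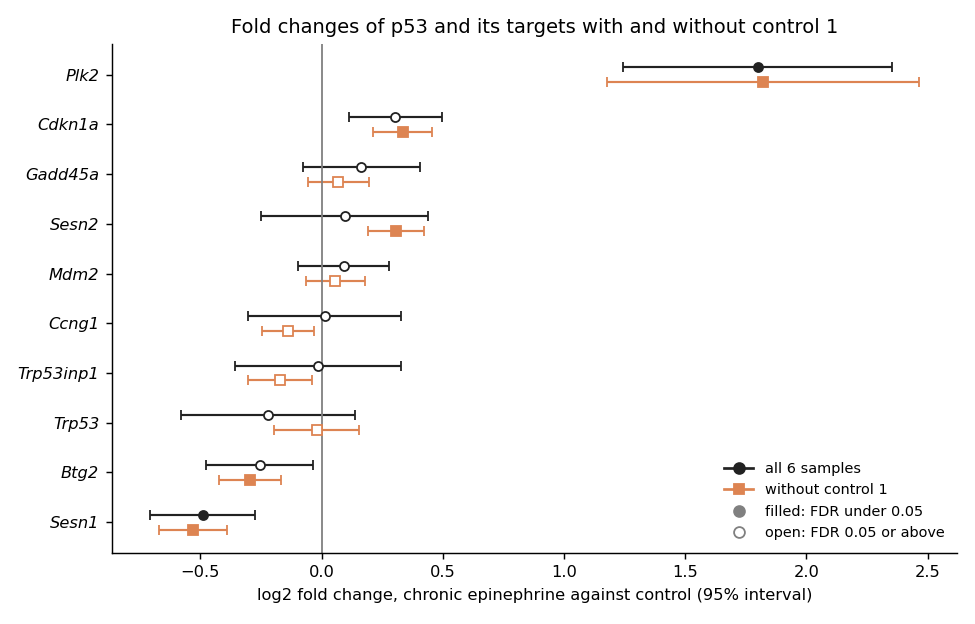
Log2 fold change of each of the 10 genes, chronic epinephrine against control, with 95% intervals, from all 6 samples (black circles) and without control 1 (orange squares). Filled symbols have an FDR under 0.05, which holds for Plk2 and Sesn1 with all samples and for Cdkn1a, Btg2 and Sesn2 as well without control 1.

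The widths of the groups differed too. The control samples spanned a wider log2 range than the epinephrine samples for 8 of the 10 genes (80%), and for 79.4% of all genes tested. Plk2 and Sesn1, the genes that were called, were the exceptions.

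The levels of the genes were compared on the authors' FPKM values (fragment counts divided by transcript length and by the sample total). Btg2 was highest in the controls at 67.1 ± 6.71 FPKM (SD, n = 3), followed by Gadd45a at 51.0 ± 5.02, Cdkn1a at 46.3 ± 2.78 and Ccng1 at 39.6 ± 7.08. Then came Sesn2 at 24.8 ± 6.35 FPKM, Mdm2 at 24.1 ± 1.32, Sesn1 at 23.0 ± 1.18, Trp53 at 17.7 ± 4.37 and Trp53inp1 at 14.0 ± 2.67. Plk2 was far below them at 0.343 ± 0.0473 FPKM. Of the neighbors in this order, only Btg2 and Gadd45a, and Trp53inp1 and Plk2, did not overlap between samples. After epinephrine the means of Cdkn1a (56.4 ± 0.607), Gadd45a (56.1 ± 2.68) and Btg2 (55.2 ± 2.41) were close together and Btg2 no longer stood above the others. Plk2 reached 1.17 ± 0.204 FPKM and Sesn1 15.6 ± 1.02 FPKM, near Trp53 at 14.9 ± 1.14.

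The sestrin family also includes Sesn3, which FoxO factors are known to activate, and it was the most abundant of the 3 in every sample. The summed FPKM of Sesn1, Sesn2 and Sesn3 was 113, 92.0 and 85.8 in the controls and 77.5, 76.9 and 75.2 after epinephrine. Each epinephrine sum was below each control sum (97.1 ± 14.5 against 76.5 ± 1.18, SD, n = 3, exact permutation p = 0.1, the smallest possible), and this sum was chosen after the values were seen. The share of Sesn2 in the sum was 28.3, 23.0 and 24.5% in the controls and 34.1, 32.6 and 34.9% after epinephrine, with no overlap. Sesn1 held 19.3, 26.3 and 26.6% in the controls and 20.4, 21.5 and 19.3% after epinephrine, so that control 1 lay with the epinephrine samples. Sesn3 itself was at 528, 424 and 385 CPM in the controls and 322, 327 and 317 CPM after epinephrine. Its log2 fold change of -0.47 (SE 0.12) had an FDR of 0.0879 by edgeR's quasi-likelihood test, and was -0.33 without control 1 (FDR 2.00e-05). Sesn3 was also called by DESeq2 (FDR 0.0131), by edgeR's exact test (FDR 0.0177) and with an offset for transcript length (FDR 0.0175).

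**Figure D4:**
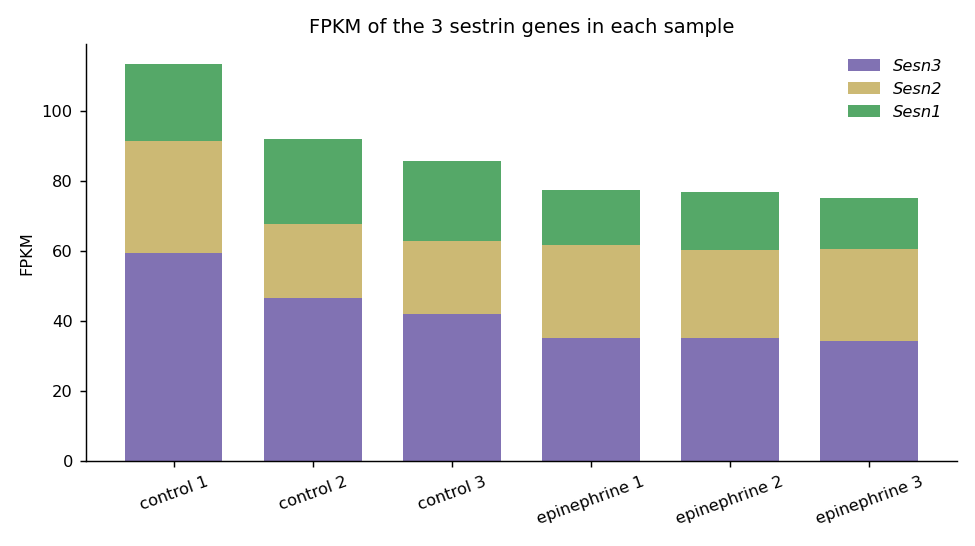
FPKM of Sesn1, Sesn2 and Sesn3 stacked for each of the 6 samples, on an axis from 0. The totals run from 85.8 to 113 in the controls and from 75.2 to 77.5 after epinephrine, and the band of Sesn2 takes a larger share in the epinephrine samples.

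Paralogs of the other genes, named after their values were seen, gave no call with all samples by edgeR's quasi-likelihood test. Plk3, a polo-like kinase like Plk2 and abundant in these cells, was at 98.8, 70.0 and 75.2 CPM in the controls and at 102, 103 and 107 CPM after epinephrine (log2 fold change 0.35, SE 0.13, FDR 0.209 by edgeR). As for Sesn2, control 1 was well above the other controls, and without it the log2 fold change was 0.52 (FDR 1.27e-07). Btg1, a paralog of Btg2 with the same antiproliferative role, went from 160 ± 9.55 to 128 ± 5.59 CPM (SD, n = 3), with no overlap (log2 fold change -0.33, SE 0.08, FDR 0.0920 by edgeR). Btg1 was called by DESeq2 (FDR 0.0131), by edgeR's exact test (FDR 0.0443) and without control 1 (-0.28, FDR 0.000359). For Mdm4, which binds and inhibits p53, the change was 0.07 on the log2 scale (SE 0.14, FDR 0.840), and -0.07 without control 1. The p21 relatives Cdkn1b (p27) and Cdkn1c (p57) were at -0.06 (FDR 0.755) and -0.22 (FDR 0.726), and at -0.07 and -0.05 without control 1. For the Gadd45 relatives Gadd45b and Gadd45g the values were 0.05 (FDR 0.871) and -0.20 (FDR 0.355), and for cyclin G2 (Ccng2) the value was 0.02 (FDR 0.926). Without control 1 these were -0.05, -0.20 and -0.03, with no call.

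Other genes of the pathway were read from lists by role. None of these lists had a called gene with all samples by edgeR's quasi-likelihood test, where 2.63% of all genes tested were called. Of 19 regulators of p53 (kinases, ligases, cofactors and family members), 17 were tested. Their median on the log2 fold scale was 0.07, and 0 had an unadjusted p under 0.05 (17.1% of all genes tested). Hipk2, a kinase of p53, had the smallest p of them, at a log2 fold change of -0.42 (SE 0.19, FDR 0.304), which was -0.14 without control 1 (FDR 0.126). The median of the regulators was then -0.01. The family members Trp63 and Trp73 did not pass the filter on low counts. Of 17 further genes of growth arrest, 16 were tested, with a median of -0.10. This list joins p53 targets with paralogs and other arrest genes, such as Cdkn1b and Cdkn1c, so it does not describe p53 targets alone. An unadjusted p under 0.05 was reached by 4 (17.1% of all genes tested). The groups did not overlap in 1 gene higher and 5 lower (27.3% of all genes tested). Btg1 had the smallest p of these, and the median was -0.06 without control 1.

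Of 18 further targets in cell death, 16 were tested, with a median of 0.01 (0.02 without control 1) and 3 at an unadjusted p under 0.05 (17.1% of all genes tested). Dapk1, a death-associated kinase, had the smallest p (log2 fold change -0.51, SE 0.14, FDR 0.0991, and -0.33 at an FDR of 0.000447 without control 1). It was called by DESeq2 (FDR 0.0299), by edgeR's exact test (FDR 0.0178) and with the length offset (FDR 0.0317). Pmaip1 (Noxa) and the death receptor Fas had at most 1 count in any sample. Among the DNA repair targets 9 of 10 were tested and their median was -0.06, with 6 lower, and -0.14 without control 1, with 8 lower. The metabolic and redox genes (13 of 14 tested) had a median of -0.08 (0.01 without control 1), and 5 had an unadjusted p under 0.05 (17.1% of all genes tested). Their groups did not overlap for 4 higher and 5 lower genes (27.3% of all genes tested). The gene of smallest p was Sesn3, which is in this list as a sestrin and which FoxO factors are known to activate.

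Cell cycle genes that p21 represses through the DREAM complex were also counted, since they are the distal readout of p53 in dividing cells. All 25 were tested and their log2 fold changes lay between -0.16 and 0.21, with a median of 0.03 (-0.01 without control 1). None was called, against 2.63% of all genes tested. An unadjusted p under 0.05 by edgeR's quasi-likelihood test was reached by 0, against 17.1% of all genes tested. Bub1, a spindle checkpoint kinase, had the smallest p at 0.21 (SE 0.13, FDR 0.448), and was at 0.08 without control 1. The groups did not overlap for 1 gene higher and 1 lower, against 27.3% of all genes tested. In bulk RNA, fewer cells of a kind and less RNA per cell cannot be told apart, for these genes and for all others given here.

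Without control 1 some of these genes were called, against the 21.6% of genes tested given above. There were 0 of the regulators, 2 higher (Plk3, Gtse1) and 2 lower (Btg1, Cdkn2c) among the growth arrest genes. Among the cell death targets 2 were lower (Dapk1, Ei24). Among the metabolic and redox genes 3 were higher (Sco2, Gls2, Tsc2) and 3 lower (Sesn3, Ak1, Prkab2). In the cell cycle list Foxm1 was called higher and Mcm6 and Nusap1 lower, each by at most 0.21 on the log2 scale. The p53 signaling pathway of KEGG, as annotated in the deposited table and added after the data were seen, had 63 tested genes of 73. With all samples it held 1 call, Sesn1, and had a median of 0.05, and without control 1 it held 5 genes called higher and 6 lower.

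**Figure D5:**
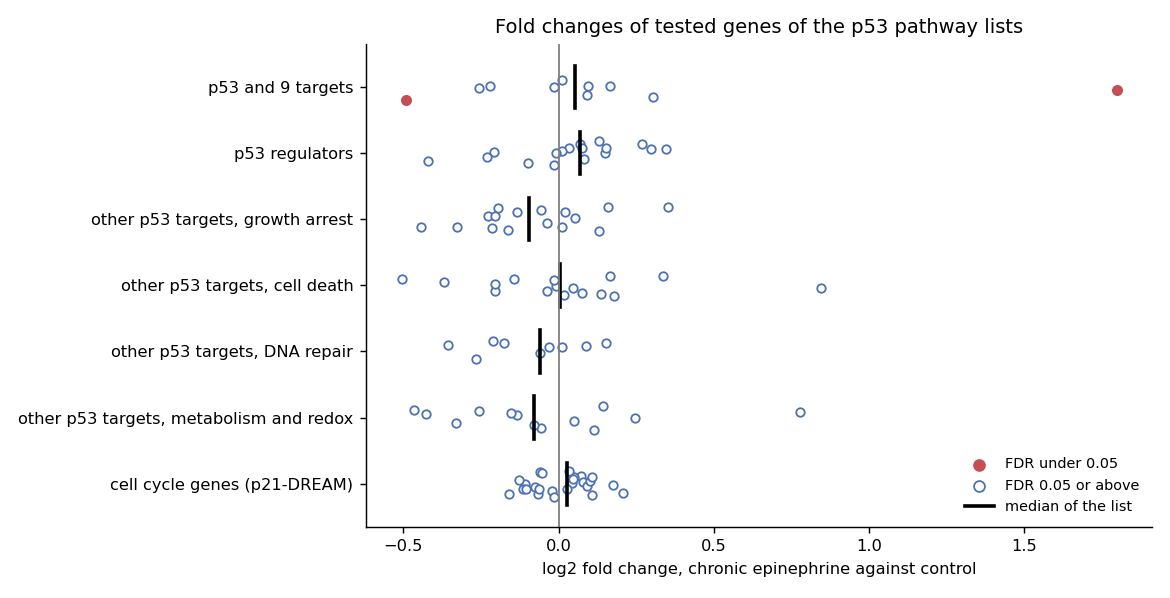
Log2 fold change, chronic epinephrine against control, of every tested gene of the p53 pathway lists, with 1 row of points for each list (vertical scatter within a row has no meaning). Red points have an FDR under 0.05 and black bars are list medians, and the only red points are Plk2 at 1.80 and Sesn1 at -0.49. The growth arrest row, labeled as p53 targets, also holds paralogs and other arrest genes, and the metabolism and redox row also holds Sesn3.

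The identity of the cells was checked on marker genes. All 10 β-cell markers were above 1 CPM in every sample, and their summed level was 46360 to 62720 CPM in the controls and 56890 to 59000 CPM after epinephrine, with control 1 lowest. That sum is led by Ins2. Of the 10 markers 7 were lower after epinephrine, 6 of them with no overlap (27.3% of all genes tested did not overlap), at a median log2 fold change of -0.22, and 1, Ins1, was called lower (-0.50). Without control 1, 5 were called lower and 1 higher, where 21.6% of all genes tested were called. Summed hepatocyte markers were at 16.9, 78.4 and 178 CPM in controls 1 to 3 and at 14.3 to 17.4 CPM after epinephrine, led by Alb with 593 and 1315 counts in controls 2 and 3 and 3 to 8 counts in the other samples. Fibroblast markers summed to 2.17 to 25.4 CPM in the controls and 2.51 to 20.2 CPM after epinephrine. The leukocyte sums of 3.66 to 6.09 and 8.46 to 10.7 CPM did not overlap, and 1 leukocyte marker, Cd68, was called higher, while Ptprc, which defines leukocytes, had at most 2 counts. Exocrine markers summed to 0.324 to 1.19 CPM, with Prss1, Cpa1, Pnlip, Ptf1a and Cel at 0 everywhere. Their part in the differences of the 10 genes was not tested.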

How the data were processed

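Total RNA of 6 MIN6 samples was sequenced on an Illumina Novaseq instrument. The authors deposited 1 table, holding per gene the expected count of every sample, not normalized between samples, and the FPKM that they derived, scaled to transcript length and sample total. The build was GRCm38 according to the submitters' processing notes, and the aligner and counter are not given in the sources used here. Expected counts (8.34% not whole) were rounded, and 3 counts correspond to 0.165 to 0.200 CPM. edgeR 4.0.16 in R 4.3.3 (TMM, filterByExpr, quasi-likelihood test, no covariate) compared chronic epinephrine with control, with Benjamini-Hochberg adjustment over 12747 genes. SE was the size of the log2 fold change divided by the square root of F. The script was tested on simulated data.

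Alternatives were DESeq2 1.42.0 (size factors, Wald test), upper quartile and library size scaling, no filter, at least 10 counts in every sample, edgeR's exact test, limma 3.58.1 on log2 FPKM with 1 or 0.1 added, replicate number as a block, an offset for transcript length (spline, 4 df) and each sample left out. Positions and shared 50-base windows came from GENCODE M21, which held 22255 of the 22298 identifiers. The 10 genes, the lists and the markers were chosen with earlier results of these data known. Named were all 10 genes and, from each list, genes called or otherwise that of smallest p. Others are named after their values were seen. Single values of some listed genes are left out of the text.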

Additional observations from a re-analysis of the deposited data

How the results depend on the processing

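Over 17 alternatives, Plk2 was called in 13 and Sesn1 in 11, always with the same sign, while Cdkn1a was called in 2, and Btg2 and Sesn2 in 1. The log2 fold change of Plk2 was 0.69 on log2(FPKM + 1) and 1.51 on log2(FPKM + 0.1), scales on which the added value understates the change of low genes. With replicate number as a block, 1 of the 10 genes was called and Sesn1 was not (FDR 0.0767). The block called 178 genes in all, but the numbers do not pair the samples, since the deviations of same-numbered samples correlated at 0.0502, 0.0677 and -0.0488 and the samples did not each match their own number best. Genes called overall were 734 by the Wald test of DESeq2, 834 by the exact test of edgeR and 612 with the length offset, against 335, and genes of the p53 lists were 6, 5 and 3, against 0. Leaving out each sample gave 47 to 2798 genes called, 0 to 14 of the p53 lists, 0 to 5 of the 10 genes, and 4 to 7 of the 10 with no overlap, each highest without control 1. Among the genes named by rule or as paralogs, signs turned for 6, none called with all samples. Ccng1 was at -0.012 with library size scaling and at -0.14 to 0.10 with a sample left out. Trp53inp1 was at 0.0020 with the block, 0.026 with the length offset and -0.17 to 0.098 with a sample left out. Leaving out a sample gave -0.0093 to 0.31 for Sesn2, -0.073 to 0.20 for Mdm4, -0.053 to 0.15 for Gadd45b and -0.029 to 0.067 for Ccng2. Gadd45b was at -0.048 with the length offset. Ccng2 was at -0.0044 with library size scaling and at -0.0010 on both FPKM scales. List medians with a sample left out were -0.14 (without control 1) to -0.0031 (without control 2) for DNA repair, -0.14 (without control 3) to 0.0086 (without control 1) for metabolic and redox, -0.13 (without control 2) to -0.050 (without control 3) for growth arrest, -0.043 to 0.024 for cell death, -0.0057 to 0.11 for regulators, -0.013 to 0.067 for cell cycle genes and 0.018 to 0.10 for the 10 genes. The causes were not tested. The value of Plk2 rests on 14 to 66 counts a sample.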
